A study of Mus musculus with 12 samples.

Results

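NF-kB transcription factors sit inactive in the cytoplasm of resting cells, held there by IkB inhibitor proteins. Signals such as tumour necrosis factor or bacterial products lead to the destruction of an IkB protein, the freed dimers enter the nucleus, and among the genes they switch on are their own inhibitors, some of their own subunits and the cytokine that can start the cycle again. In myeloid cells of the bone marrow the pathway is best known for cytokine and chemokine output and for survival. The 10 genes described here were chosen by symbol from a table of 19910 genes: the subunit genes Nfkb1, Nfkb2 and Relb, the inhibitor genes Nfkbia, Nfkbie, Nfkbid and Nfkbiz, the brake Tnfaip3, the cytokine gene Tnf and the cytokine-induced gene Tnfaip2. All 10 were listed, and all 10 were among the 10993 genes with enough counts to be tested. Counts of the members ran from 25 to 2026 in a library.

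RNA was sequenced from mouse marrow transduced with retrovirus, in 4 groups of 3 libraries, 12 in all. The marrow came from female C57BL/6J mice of 6 to 10 weeks, and each group received a pair of vectors. These were 2 empty vectors (called empty here), mutant SETBP1 (D868N) with an empty vector (SETBP1), an empty vector with mutant NRAS (G12D) (NRAS), or both mutants (SETBP1+NRAS). SETBP1 is a nuclear DNA-binding protein that is mutated in myeloid leukaemia, and NRAS a small GTPase above the MAPK pathway; the series title asks whether the first enhances what the second drives. The labels call the cells leukaemia cells in every group, the empty group included, and do not say whether replicates were separate mice, transductions or cultures, so p-values measure only the spread between these libraries.

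Library totals ran from 7085894 to 8864919 counts, and levels below are CPM, that is counts relative to library size, after TMM normalisation in edgeR (normalised CPM). Nras had 626 to 741 counts in the 6 libraries without the NRAS vector and 10517 to 13502 in the 6 with it. Setbp1 had 0 counts in every library without the SETBP1 vector and 5 to 17 in those with it, so no library went against its label. SETBP1 replicate 3 stood apart: its correlation with the others of its group was 0.946 and 0.953, against at least 0.984 for every other pair within a group, and the members' called changes that involve the SETBP1 group are also given without it. That library had counts for 11835 genes, against 12461 to 12800 in the others, although its total of 8864919 was the highest. The part of this in its values was not tested. The blood and progenitor genes Ptprc, Mpo, Elane, Spi1 and Cebpa were present in every library, with Cebpa lowest at 44.2 CPM. Haemoglobin genes of red cells, and Cxcl12 of stroma, were at 0 in all groups, as was Pax5 of B cells. Other stroma and endothelium markers had counts. The 8 listed summed to 52.3 to 70.0 CPM in empty and 32.1 to 81.8 CPM in SETBP1 libraries. The sums were 33.6 to 43.5 CPM in NRAS and 17.5 to 22.7 CPM in SETBP1+NRAS libraries. Vcam1, 1 of the 8, was at 49.4 to 67.7 CPM in empty libraries.

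The starts of these genes are shown first because feedback in this pathway runs through NF-kB binding at its own genes. RefSeq promoter windows on GRCm38.p6, from 250 bases before to 50 bases after an annotated start, were listed for 7 of the 10 members (Nfkb2, Nfkbia, Nfkbie, Nfkbid, Tnfaip3, Tnf and Tnfaip2). Both strands were searched for the kB motif, the 10-base consensus that NF-kB dimers bind. It was found for 6 of those 7 genes, in at least 1 of their windows, against 9.55% of the 27025 genes in the same table. Per window, 8.46% of 32851 held it. Genes with several windows, as Nfkb2 and Nfkbid have here, offer more places for a match than genes with a single window. The members were also chosen as genes of this pathway, so their share is description only. A match is a run of letters and not a measured binding site, and the Tnf window held none.

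Of 9 stretches upstream of a start that hold a match, 8 are given, to show at least 1 for each of the 6 genes; that of Nfkb2 start 2 is left out. They are written 5′ to 3′ on the gene's own strand, in lower case with the motif in capitals. Adjoining capitals in the first Nfkb2 stretch are a pair of overlapping matches.
Nfkb2, chr19:46304678-46304736, plus strand: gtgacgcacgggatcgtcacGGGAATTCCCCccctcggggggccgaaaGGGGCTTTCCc
Nfkb2, start 3, chr19:46305685-46305734, plus strand: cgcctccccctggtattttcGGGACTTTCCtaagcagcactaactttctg
Nfkbia, chr12:55492648-55492696, minus strand: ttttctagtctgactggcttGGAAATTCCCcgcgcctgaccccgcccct
Nfkbie, chr17:45555574-45555623, plus strand: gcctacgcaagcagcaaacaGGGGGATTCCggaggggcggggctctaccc
Nfkbid, start 2, chr7:30422160-30422254, plus strand: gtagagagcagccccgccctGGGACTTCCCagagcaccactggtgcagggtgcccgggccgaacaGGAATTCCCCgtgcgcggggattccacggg
Tnfaip3, chr10:19015506-19015555, minus strand: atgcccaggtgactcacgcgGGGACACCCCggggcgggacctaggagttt
Tnfaip3, chr10:19015411-19015442, minus strand: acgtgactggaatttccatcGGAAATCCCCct
Tnfaip2, chr12:111442617-111442660, plus strand: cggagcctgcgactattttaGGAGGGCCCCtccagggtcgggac
The matches of Nfkbia and Tnfaip2 lay within 29 and 24 bases of the start, and those at Nfkb2 start 1 within 39 and 11. At Nfkb2 starts 2 and 3, the matches upstream began 236 and 225 bases before the start. The Nfkbie match lay 106 bases upstream. These genes did not move alike: Nfkbia and Nfkb2 rose where Tnfaip2 fell, as the values below show.

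**Figure D1:**
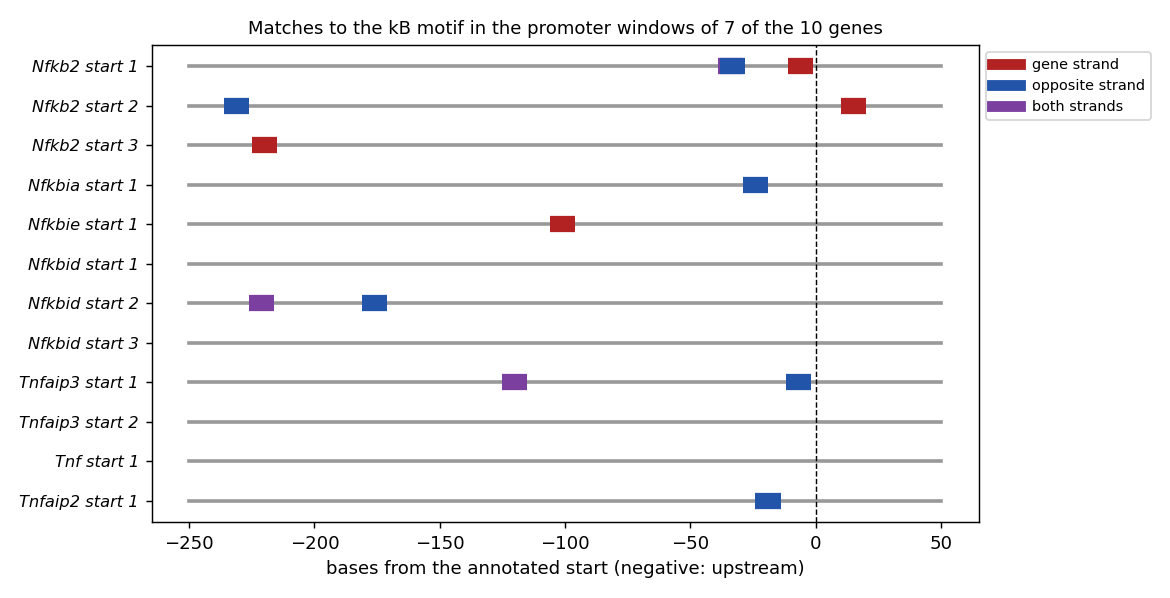
Position of kB motif matches in 12 promoter windows of 7 genes, in bases from the annotated start (horizontal axis), with 1 line per window; red marks a match on the gene's strand, blue on the opposite strand and purple on both. Nfkb2 and Tnfaip3 have matches within 11 and 12 bases of a start, and the Tnf window has none.

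Levels between genes can be compared only per length, and were set per kilobase of all annotated exons (GENCODE M21, GRCm38). On that scale, in empty libraries, Nfkbia was the most abundant member at 81.3 ± 9.52 RPKM (SD, n = 3), and Tnfaip2 followed at 29.2 ± 1.51 RPKM. Nfkbid, Nfkb1, Nfkbie, Tnf and Nfkb2 lay between 6.07 and 9.34 RPKM, and Relb, Tnfaip3 and Nfkbiz at 2.56, 2.13 and 0.931 RPKM. In SETBP1+NRAS libraries Tnf stood at 50.2 ± 7.98 RPKM and had passed every member but Nfkbia, at 122.6 ± 10.4 RPKM. Tnf held the same rank in NRAS libraries, at 38.5 ± 2.75 RPKM, below Nfkbia at 127.3 ± 9.74 RPKM. Nfkbiz, a nuclear IkB protein that steers a subset of inflammatory genes, was the least abundant member in all 4 groups. Rela, the main activating subunit and not a member, was at 34.1 ± 1.28 RPKM in empty libraries.

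**Figure D2:**
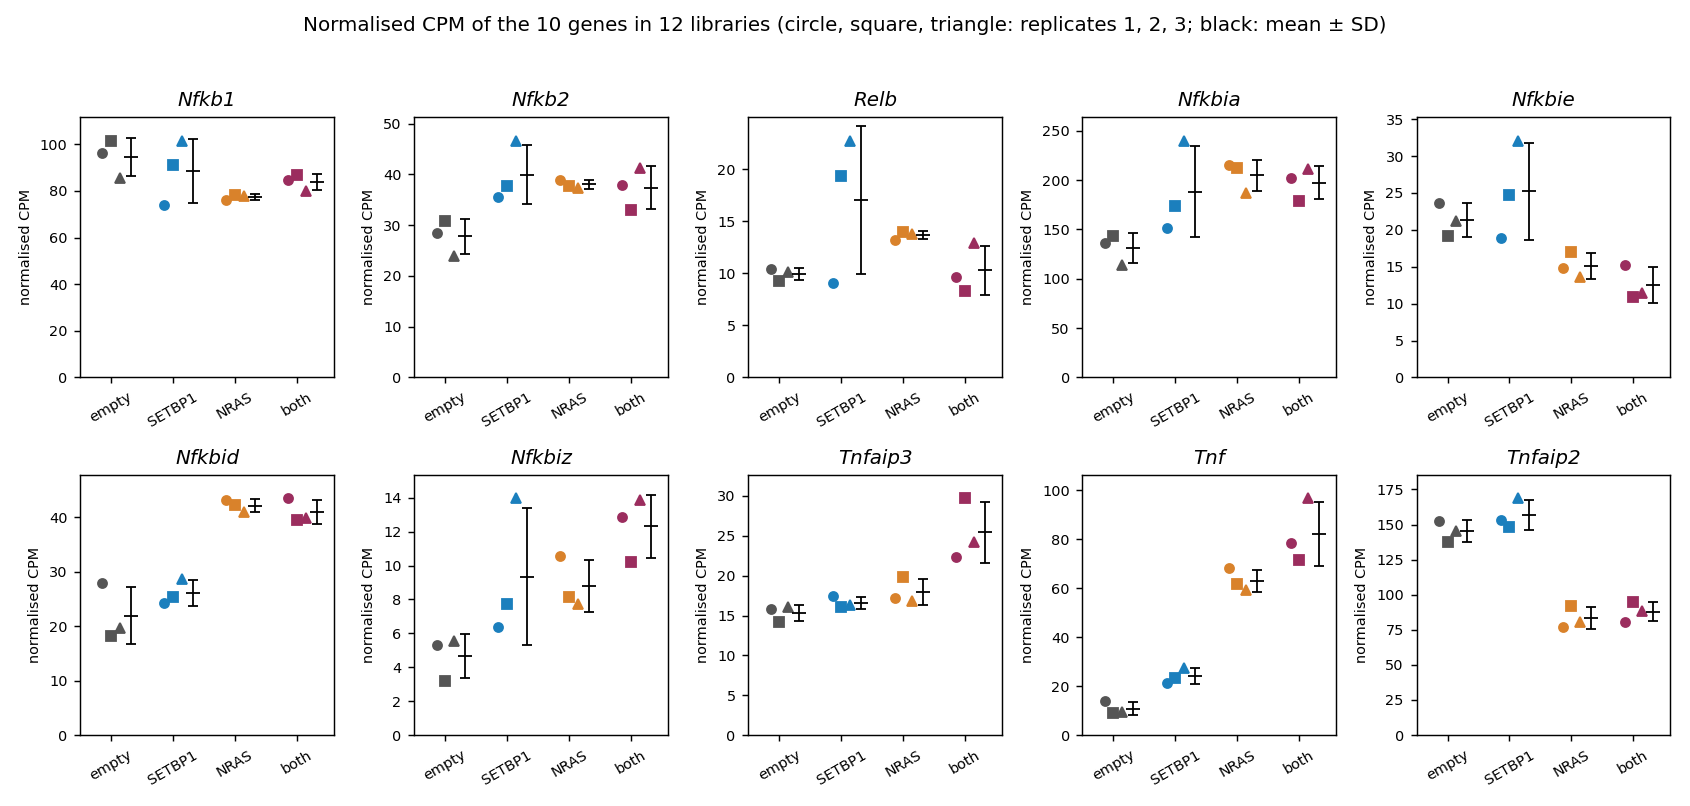
Normalised CPM (vertical axes, from 0) of each gene in the 4 groups, with 1 point per library and the mean ± SD in black; "both" is SETBP1+NRAS. Tnf libraries form 4 separate steps, Nfkbid and Tnfaip2 split by NRAS, and SETBP1 replicate 3 (triangle) is the highest SETBP1 library for 9 of the 10 genes.

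Tnf encodes the cytokine that activates the pathway through its receptors (chromosome 17, 35199381 to 35202007, minus strand). Its level was 14.1, 9.02 and 9.45 CPM in the empty libraries, 21.2, 23.3 and 27.6 CPM with SETBP1, 68.2, 61.8 and 59.5 CPM with NRAS, and 78.5, 71.4 and 96.7 CPM with SETBP1+NRAS. The 4 groups stood in that order, and no library of one overlapped a library of the next. In edgeR's quasi-likelihood test, with p-values adjusted by Benjamini and Hochberg's method over all genes, Tnf rose by log2 1.14 with SETBP1 (SE 0.18, adjusted p 0.00279), or 2.20-fold, and by log2 2.53 with NRAS (SE 0.18, adjusted p 1.79e-07), or 5.78-fold. Against empty, SETBP1+NRAS libraries held 7.52-fold more (log2 2.91, SE 0.18, adjusted p 2.55e-08), and against SETBP1 libraries 3.42-fold more (log2 1.77, SE 0.16, adjusted p 1.96e-06). The last step, SETBP1+NRAS against NRAS, was log2 0.38 (SE 0.16), with a 95% interval of 0.04 to 0.72 and an adjusted p of 0.330, so it was not past the threshold of 0.05 although the groups did not overlap. In bulk RNA, more cells of a type and more RNA per cell cannot be told apart. Leaving out SETBP1 replicate 3, the rise with SETBP1 was log2 1.02 (adjusted p 8.67e-04) and that of SETBP1+NRAS over SETBP1 log2 1.89 (adjusted p 7.61e-09). With only the empty and SETBP1 libraries fitted it was not past the threshold (log2 1.15, adjusted p 0.0533), while with only the SETBP1+NRAS and NRAS libraries fitted the last step was (log2 0.38, adjusted p 0.0352).

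Among the subunits, Nfkb2 encodes the precursor processed in the non-canonical branch of the pathway (chromosome 19, 46304320 to 46312385, plus strand). Its level was 28.5, 30.9 and 24.0 CPM in empty libraries, 35.7, 37.6 and 46.6 CPM with SETBP1, 39.0, 37.8 and 37.4 CPM with NRAS, and 37.9, 33.0 and 41.3 CPM with SETBP1+NRAS. All 9 libraries with a mutant were above all 3 empty libraries, and the 3 mutant groups overlapped one another. Nfkb2 rose by log2 0.52 with SETBP1 (SE 0.14, adjusted p 0.0232), by 0.45 with NRAS (SE 0.14, adjusted p 0.0208) and by 0.43 with SETBP1+NRAS (SE 0.14, adjusted p 0.0223). These are rises of 1.44-fold, 1.37-fold and 1.34-fold, and they share the same empty libraries. Without empty replicate 1 or empty replicate 3 none of the 3 was past the threshold (adjusted p 0.0542 to 0.111). The NRAS call was also lost without NRAS replicate 1 (0.0617) or NRAS replicate 2 (0.0514), and the SETBP1+NRAS call without SETBP1+NRAS replicate 1 (0.0597) or replicate 3 (0.0956) and under library size scaling (0.0635). With SETBP1 replicate 3 left out, the SETBP1 rise was log2 0.40 (adjusted p 0.0377).

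Relb encodes the activating partner of the Nfkb2 product (chromosome 7, 19606217 to 19629438, minus strand). It stood at 10.4, 9.27 and 10.1 CPM in empty libraries and at 9.03, 19.3 and 22.7 CPM with SETBP1, a group in which replicate 1 was below every empty library and the others above them all. With NRAS it was at 13.2, 13.9 and 13.8 CPM, and with SETBP1+NRAS at 9.65, 8.32 and 12.9 CPM. Relb was lower in SETBP1+NRAS than in SETBP1 libraries (log2 -0.73, SE 0.27, adjusted p 0.0468), although those groups overlapped. Of 12 refits that each left out a library, 10 did not make that call (adjusted p 0.0569 to 0.163), all but those without SETBP1 replicate 1 or SETBP1+NRAS replicate 3, and the change was log2 -0.45 (adjusted p 0.1398) without SETBP1 replicate 3. The SETBP1 change of Relb, log2 0.78 (SE 0.27, adjusted p 0.0691), passed the threshold without SETBP1 replicate 1 (log2 1.09, adjusted p 0.00234) and with DESeq2 (adjusted p 0.0420). DESeq2 called 20.2% of all genes in that comparison, where edgeR called 14.9%.

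Nfkb1 encodes the precursor of the DNA-binding subunit of the canonical dimer (chromosome 3, 135584655 to 135691547, minus strand). It was at 96.4, 101.5 and 85.6 CPM in empty libraries, 74.1, 91.0 and 101.3 CPM with SETBP1, 76.1, 78.1 and 78.0 CPM with NRAS, and 84.6, 87.0 and 79.9 CPM with SETBP1+NRAS. The NRAS libraries lay below the empty ones without overlap, at log2 -0.29 (SE 0.11, adjusted p 0.0570), just outside the threshold; without SETBP1 replicate 1, SETBP1 replicate 3 or empty replicate 3 the adjusted p was 0.0182, 0.0105 and 0.0407, and DESeq2 gave 0.0486. Library size scaling gave log2 -0.38 (adjusted p 0.00913), and with that scaling Nfkb1 was also past the threshold in SETBP1+NRAS against empty (log2 -0.29, adjusted p 0.0283), which it was not otherwise (log2 -0.17, adjusted p 0.227) except with only those groups fitted (0.0496). The remaining subunits, Rela and Rel, passed the threshold in none of the 6 comparisons, with changes of Rela between log2 -0.09 and 0.13. Rel, the subunit c-Rel of lymphoid and myeloid activation, was at 28 to 67 counts in a library; without SETBP1 replicate 1 it was past the threshold for SETBP1 against empty (log2 -0.86, adjusted p 0.0195) and for SETBP1+NRAS against SETBP1 (log2 0.98, adjusted p 0.00524).

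Of the classical inhibitors, Nfkbia encodes IkB-alpha, which is quickly made again after activation and is the standard negative feedback of the pathway (chromosome 12, 55489410 to 55492647, minus strand). Its level was 136.0, 143.0 and 113.6 CPM in empty libraries, 151.5, 173.7 and 239.7 CPM with SETBP1, 215.2, 212.6 and 186.8 CPM with NRAS, and 202.5, 178.7 and 211.0 CPM with SETBP1+NRAS. All 9 libraries with a mutant exceeded the 3 empty ones, and within the mutant groups SETBP1 replicate 3 was the highest of all. Nfkbia rose by log2 0.52 with SETBP1 (SE 0.14, adjusted p 0.0291), 0.65 with NRAS (SE 0.14, adjusted p 0.00357) and 0.59 with SETBP1+NRAS (SE 0.14, adjusted p 0.00488). SETBP1+NRAS differed from NRAS by log2 -0.05, with a 95% interval of -0.36 to 0.25, and from SETBP1 by 0.07, with an interval of -0.24 to 0.38. Fitted without SETBP1 replicate 3, the SETBP1 rise was log2 0.31 (adjusted p 0.0381), and SETBP1+NRAS then stood above SETBP1 by log2 0.28 (adjusted p 0.0244). The SETBP1 rise was not past the threshold without empty replicate 1 (adjusted p 0.0777) or empty replicate 3 (0.129).

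Nfkbie encodes IkB-epsilon, a slower inhibitor (chromosome 17, 45555703 to 45563169, plus strand), and it moved the other way. It was at 23.7, 19.2 and 21.2 CPM in empty libraries, 18.9, 24.7 and 32.1 CPM with SETBP1, 14.8, 17.1 and 13.6 CPM with NRAS, and 15.3, 10.9 and 11.4 CPM with SETBP1+NRAS. The 6 libraries with NRAS were all below the 6 without it. Nfkbie fell by 0.77 on the log2 scale in SETBP1+NRAS against empty (SE 0.20, adjusted p 0.00756) and by 1.01 against SETBP1 (SE 0.20, adjusted p 0.00128), 2.02-fold lower. For NRAS against empty the change was log2 -0.50 (SE 0.20, adjusted p 0.0719), which passed without SETBP1 replicate 1 (0.0354) or replicate 3 (0.0134). Without SETBP1 replicate 3, the fall against SETBP1 was 0.80 on the log2 scale (adjusted p 0.00104). Nfkbib, another classical inhibitor and not a member, rose with SETBP1 (log2 0.58, SE 0.13, adjusted p 0.0145) and with SETBP1+NRAS (log2 0.43, SE 0.13, adjusted p 0.0198) against empty. Neither call held without empty replicate 1 or 3 (adjusted p 0.0592 and 0.0706 for SETBP1), nor the second without SETBP1+NRAS replicate 1.

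The nuclear IkB proteins act at promoters rather than in the cytoplasm. Nfkbid, which encodes IkB-NS (chromosome 7, 30421732 to 30428746, plus strand), was at 27.9, 18.2 and 19.7 CPM in empty libraries, 24.2, 25.4 and 28.8 CPM with SETBP1, 43.2, 42.4 and 40.9 CPM with NRAS, and 43.5, 39.6 and 40.0 CPM with SETBP1+NRAS. Its libraries split by NRAS with no overlap, and within each side the pairs of groups overlapped. Nfkbid rose by log2 0.94 with NRAS (SE 0.15, adjusted p 2.69e-04), 0.90 with SETBP1+NRAS against empty (SE 0.15, adjusted p 2.67e-04) and 0.65 against SETBP1 (SE 0.15, adjusted p 0.00292). The last was log2 0.73 (adjusted p 3.98e-04) without SETBP1 replicate 3. SETBP1+NRAS differed from NRAS by log2 -0.04, with a 95% interval of -0.35 to 0.27.

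Nfkbiz encodes IkB-zeta (chromosome 16, 55811375 to 55838899, minus strand) and was measured with only 25 to 118 counts. It was at 5.31, 3.18 and 5.53 CPM in empty libraries, 6.38, 7.71 and 13.96 CPM with SETBP1, 10.6, 8.12 and 7.73 CPM with NRAS, and 12.9, 10.2 and 13.9 CPM with SETBP1+NRAS. All 9 libraries with a mutant lay above the empty ones. Nfkbiz rose by log2 1.39 with SETBP1+NRAS (SE 0.30, adjusted p 0.00231), 1.00 with SETBP1 (SE 0.31, adjusted p 0.0442) and 0.91 with NRAS (SE 0.31, adjusted p 0.0371). Of the 12 refits that each left out a library, 10 did not call the SETBP1 change (adjusted p 0.0537 to 0.1397), all but those without SETBP1 replicate 1 or 2, nor did limma-voom (0.0651). Without SETBP1 replicate 3 its size was log2 0.59 (adjusted p 0.1397), and SETBP1+NRAS was then above SETBP1 by log2 0.81 (adjusted p 0.00981) in place of 0.39 (adjusted p 0.290). The NRAS call was lost without any 1 of the empty or NRAS libraries and without SETBP1+NRAS replicate 1 (adjusted p 0.0507 to 0.145).

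Tnfaip3 encodes a ubiquitin-editing enzyme that shuts down signalling from the tumour necrosis factor receptor (chromosome 10, 19000910 to 19015657, minus strand). It was at 15.8, 14.2 and 16.1 CPM in empty libraries, 17.5, 16.1 and 16.3 CPM with SETBP1, 17.2, 19.9 and 16.9 CPM with NRAS, and 22.4, 29.7 and 24.2 CPM with SETBP1+NRAS. The 3 SETBP1+NRAS libraries were above the other 9. Tnfaip3 rose in SETBP1+NRAS by log2 0.73 against empty (SE 0.14, adjusted p 0.00110) and 0.61 against SETBP1 (SE 0.14, adjusted p 0.00364), or 0.60 (adjusted p 0.00297) with SETBP1 replicate 3 left out. Against NRAS the difference was log2 0.50 (SE 0.14), with a 95% interval of 0.20 to 0.81, an unadjusted p of 0.00350 and an adjusted p of 0.107. That adjusted p was 0.0244 without SETBP1 replicate 3, a library outside the comparison, and 0.0352 with only the SETBP1+NRAS and NRAS libraries fitted. Neither mutant alone moved it past the threshold (log2 0.11 with SETBP1 and 0.23 with NRAS, adjusted p 0.608 and 0.260), and the test of whether the SETBP1 change differed with NRAS gave log2 0.39 (SE 0.20, adjusted p 0.440).

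Tnfaip2, named for its induction by tumour necrosis factor in endothelium and involved in membrane protrusions (chromosome 12, 111442469 to 111455018, plus strand), went against Tnf. Its level was 152.7, 137.7 and 145.7 CPM in empty libraries, 153.5, 148.3 and 168.6 CPM with SETBP1, 76.9, 91.9 and 80.9 CPM with NRAS, and 80.8, 94.6 and 88.5 CPM with SETBP1+NRAS. Every library with NRAS was below every library without it. Tnfaip2 fell by 0.81 on the log2 scale with NRAS (SE 0.09, adjusted p 1.74e-05), by 0.72 with SETBP1+NRAS against empty (SE 0.09, adjusted p 2.85e-05) and by 0.83 against SETBP1 (SE 0.09, adjusted p 9.71e-06). With SETBP1 replicate 3 left out, the last of these was log2 -0.78 (adjusted p 5.58e-07). The fall against empty was 1.75-fold with NRAS and 1.65-fold with SETBP1+NRAS. SETBP1 alone differed from empty by log2 0.11, with a 95% interval of -0.08 to 0.30.

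Counted together, SETBP1 against empty called 4 of the 10 members, all higher (Nfkb2, Nfkbia, Nfkbiz and Tnf), against 14.9% of all genes tested in either direction and 8.31% higher and 6.55% lower. The median change of the 10 was log2 0.39, against -0.01 over all genes, and 0.24 without SETBP1 replicate 3. NRAS against empty called 6, with Nfkb2, Nfkbia, Nfkbid, Nfkbiz and Tnf higher and Tnfaip2 lower; the background was 32.5% of genes, 17.0% higher and 15.5% lower. The median was log2 0.45. SETBP1+NRAS against empty called 8, those 5 and Tnfaip3 higher and Nfkbie and Tnfaip2 lower, against 40.6% of genes, 20.8% higher and 19.8% lower, with a median of log2 0.51. SETBP1+NRAS against SETBP1 called 6, with Nfkbid, Tnfaip3 and Tnf higher and Relb, Nfkbie and Tnfaip2 lower, against 42.4% of genes, 20.9% higher and 21.5% lower, and the median was log2 -0.01, or 0.16 without SETBP1 replicate 3.

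SETBP1+NRAS against NRAS called 0 of the 10 with edgeR, against 1.91% of genes (0.528% higher and 1.38% lower); DESeq2 and limma-voom also called 0, and 2 members, Tnfaip3 and Tnf, were at an unadjusted p under 0.05, as were 11.7% of genes. Both were higher. The count for SETBP1 against empty was 1 without empty replicate 1 or empty replicate 3, where 4.44% and 3.50% of genes were called, and 0 when only those 6 libraries were fitted, where 1.03% were. Without SETBP1 replicate 3 it was 3 (Nfkb2, Nfkbia and Tnf), against 15.3%. In the same fit NRAS against empty called 8, with Nfkb1 and Nfkbie now lower (47.0% of genes), and SETBP1+NRAS against empty called 8 (53.7%). SETBP1+NRAS against NRAS called 1, Tnfaip3 (7.52%), SETBP1+NRAS against SETBP1 called 7 (46.5%), and the interaction 0 (0.99%). The comparisons with empty share their empty libraries and are not independent of one another. Libraries scaled by size alone gave 1379 genes higher and 2265 lower for NRAS against empty, where the main scaling gave 1868 and 1708, and shifted the median of all genes by log2 -0.12 for SETBP1+NRAS against empty; each member called in the main fit kept its direction.

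**Figure D3:**
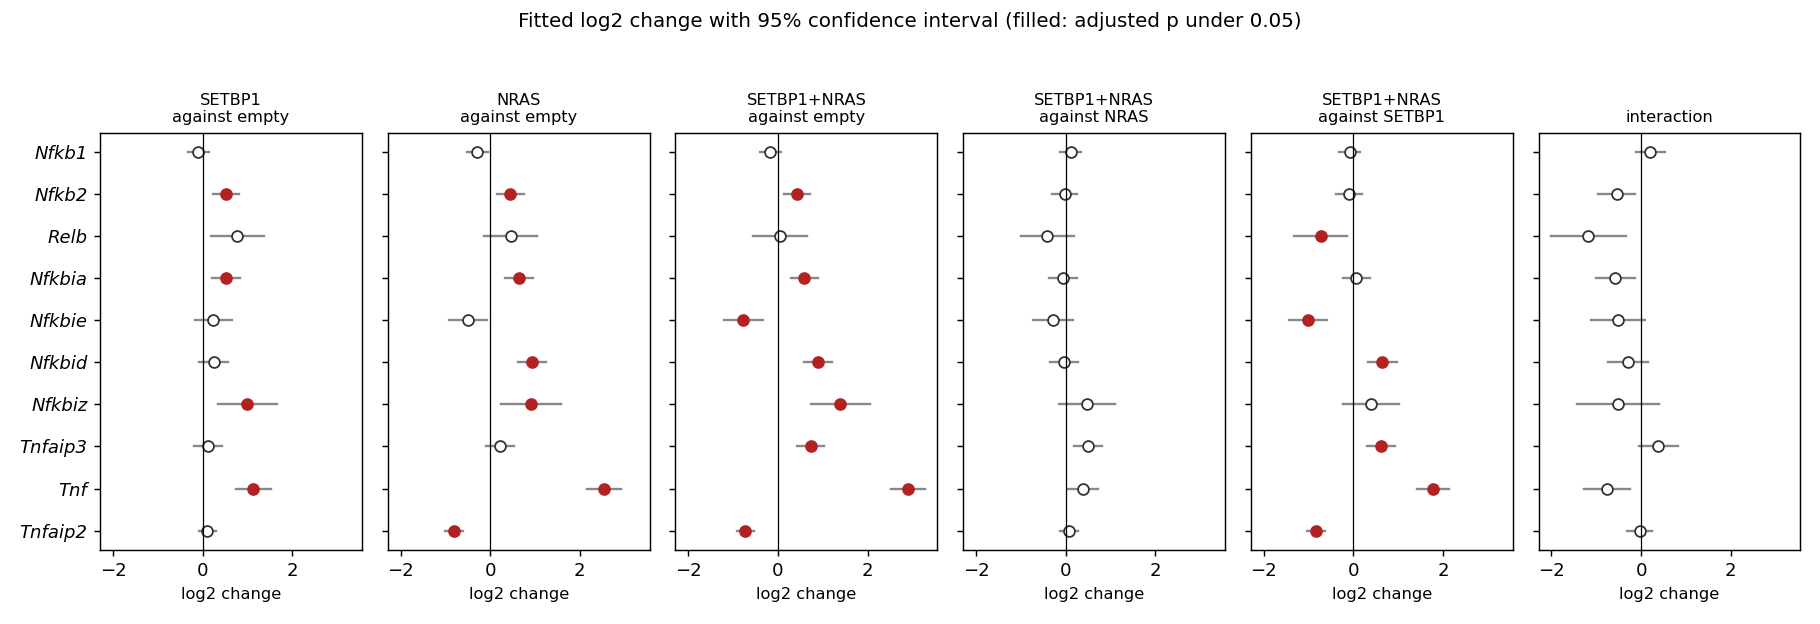
Fitted log2 change (horizontal axis) of the 10 genes in 6 comparisons, with 95% confidence intervals; filled circles are at an adjusted p under 0.05. Tnf lies at log2 2.53 and 2.91 in the comparisons of NRAS and SETBP1+NRAS with empty, and no circle is filled for SETBP1+NRAS against NRAS or the interaction.

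Non-overlap between groups gave a wider view of NRAS against empty. All 10 members had NRAS libraries wholly above (7) or wholly below (3) the empty ones, where 56.3% of genes tested did so, 28.4% above and 27.9% below. The 7 above were those called and Relb and Tnfaip3, and the 3 below were Nfkb1, Nfkbie and Tnfaip2. With 3 libraries a group, an exact permutation test of a single gene cannot give a two-sided p below 0.1. For SETBP1 against empty 5 members did not overlap, all of them higher (Tnfaip3 besides those called), against 33.2% of genes, 16.7% higher. SETBP1+NRAS against empty had 8 such members (61.2% of genes), SETBP1+NRAS against SETBP1 5 (48.8%) and SETBP1+NRAS against NRAS 4 (25.2%), which were Nfkb1, Tnfaip3 and Tnf above and Relb below.

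SETBP1 replicate 3 was above both other SETBP1 libraries for 9 of the 10 members, all but Tnfaip3, where 42.3% of genes tested were. Its ratio to the mean of the other pair ran from 0.974 for Tnfaip3 to 1.98 for Nfkbiz, with a median of 1.26 against 1.00 over all genes. The same library was the highest of its group for the summed markers of monocytes and macrophages and of dendritic cells. It was the lowest of its group for late neutrophil markers (5304 CPM, against 7485 and 5471) and myeloid progenitor markers (17790 CPM, against 19570 and 19680), and between the others for mast cell and basophil markers (2142 CPM, against 2300 and 1614). The 15 monocyte and macrophage markers summed to 8117 CPM in it and to 6098 and 6304 CPM in the other SETBP1 libraries, against 5321 to 5882 CPM in empty, 5056 to 5334 CPM in NRAS and 4895 to 5387 CPM in SETBP1+NRAS libraries. Of these markers 6 were higher and 1 lower for SETBP1 against empty, and none was at 0 in any group. The 8 dendritic cell markers summed to 1009 CPM in it, to 578.5 and 637.8 CPM in the rest of its group and to 299.8 to 431.7 CPM elsewhere. Of 5 tested for SETBP1 against empty, only Cd74 and H2-Ab1 were called higher, and the median of the 5 was log2 -0.38. Over all genes 8.31% were called higher and 6.55% lower. Siglech was at 0 in NRAS and SETBP1+NRAS libraries. The part of these markers in the members' rise was not tested. The rise of Nfkb2, Nfkbia and Tnf was past the threshold without that library.

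**Figure D4:**
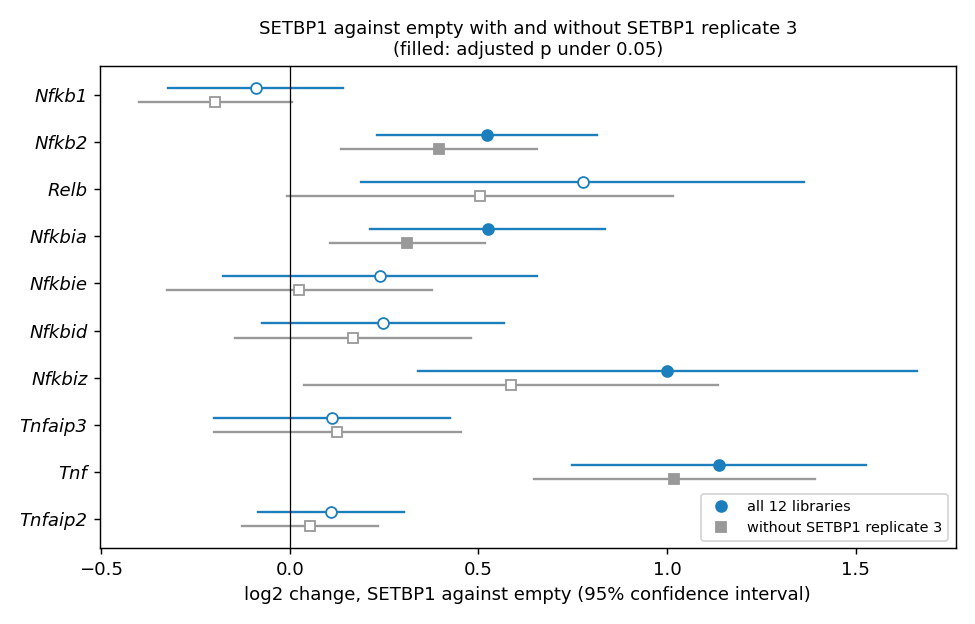
Log2 change for SETBP1 against empty (horizontal axis) with 95% confidence intervals, with all 12 libraries (blue circles) and without SETBP1 replicate 3 (grey squares); filled symbols are at an adjusted p under 0.05. Nfkbiz drops from log2 1.00 to 0.59 and Nfkbia from 0.52 to 0.31, while Tnf goes from 1.14 to 1.02.

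Markers of other myeloid cells also differed between the groups. The 12 late neutrophil markers in the table summed to 11350 to 12830 CPM in empty, 5304 to 7485 CPM in SETBP1, 5979 to 7637 CPM in NRAS and 2057 to 2571 CPM in SETBP1+NRAS libraries. The 9 myeloid progenitor markers summed to 24170 to 26820, 17790 to 19680, 9873 to 11160 and 5742 to 6393 CPM in the same order, and the 9 mast cell and basophil markers to 2964 to 3070, 1614 to 2300, 637.7 to 1096 and 329.0 to 518.3 CPM. None of these 3 lists had a member at 0 in any group. The monocyte and macrophage sum was 5056 to 5334 CPM in NRAS and 5321 to 5882 CPM in empty libraries. For NRAS against empty, 3 of its 15 markers were called higher and 7 lower, with a median of log2 -0.40. Over all genes 17.0% were called higher and 15.5% lower. The part of these shifts in the members' changes was not tested. T cell, B cell and erythroid markers stayed low, with summed levels of at most 10.7, 21.95 and 10.8 CPM, and Cd3e, Cd8a and Pax5 were at 0 in every group. Of 3 stroma and endothelium markers tested, Pdgfrb and Kdr were called higher and Vcam1 lower for NRAS against empty.

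The interaction asks whether the SETBP1 change was the same with and without NRAS, on the log2 scale, and it was past the threshold for 0 of the 10 members with edgeR, DESeq2 and limma-voom, against 0.0455% of genes with edgeR (0.0091% higher and 0.0364% lower). At an unadjusted p under 0.05 there were 4, where 12.9% of genes were: Relb at log2 -1.18 (SE 0.39, adjusted p 0.273), Tnf at -0.76 (SE 0.24, adjusted p 0.268), Nfkbia at -0.58 (SE 0.20, adjusted p 0.304) and Nfkb2 at -0.55 (SE 0.19, adjusted p 0.304). All 4 are negative, so the SETBP1 step was lower on the log2 scale in the presence of NRAS, without passing the adjusted threshold. For Relb the step turned: its mean went from 9.93 to 17.0 CPM with SETBP1 alone and from 13.7 to 10.3 CPM on top of NRAS. The means of Nfkbia and Nfkb2 went from 204.9 to 197.4 CPM and from 38.0 to 37.4 CPM on top of NRAS. Relb passed the adjusted threshold without SETBP1 replicate 1 (log2 -1.50, adjusted p 0.0340). On the linear scale the mean of Tnf went from 10.8 to 24.0 CPM with SETBP1 alone, and from 63.2 to 82.2 CPM with SETBP1 on top of NRAS. Without SETBP1 replicate 3 the 4 values were -0.91, -0.64, -0.37 and -0.42 (adjusted p 0.165 to 0.237).

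The rest of the pathway was taken from a list of 47 receptors, adaptors, kinases and regulators, all tested. SETBP1 against empty called 2 higher and 5 lower, which is 14.9% of the list, where 14.9% of all genes were called. NRAS against empty called 5 higher and 12 lower (36.2% of the list, 32.5% of all genes), SETBP1+NRAS against empty 8 and 13 (44.7% and 40.6%) and SETBP1+NRAS against SETBP1 5 and 10 (31.9% and 42.4%). These shares in either direction are near those over all genes, or below, and are no result about the list. In the same order, lower calls were 10.6%, 25.5%, 27.7% and 21.3% of the list, against 6.55%, 15.5%, 19.8% and 21.5% of all genes. Higher calls were 4.26%, 10.6%, 17.0% and 10.6% of the list, against 8.31%, 17.0%, 20.8% and 20.9% of all genes. Median changes were between log2 -0.11 and -0.01 over all comparisons. For SETBP1+NRAS against NRAS and for the interaction 0 passed with edgeR, where 1.91% and 0.0455% of all genes did. Traf1, an adaptor of tumour necrosis factor receptors, rose 3.91-fold with NRAS (log2 1.97, SE 0.27, adjusted p 8.55e-05), from 3.33 ± 0.710 to 13.1 ± 2.40 CPM (SD, n = 3), and to 14.95 ± 3.81 CPM with SETBP1+NRAS. Zc3h12a, an RNase that degrades cytokine messages, rose by log2 1.19 with NRAS (SE 0.36, adjusted p 0.0226), a call lost without any 1 of the empty libraries or NRAS replicate 1 or 2 (adjusted p 0.0541 to 0.0730). The receptor Tnfrsf1a fell in SETBP1+NRAS against SETBP1, from 157.7 ± 20.0 to 95.6 ± 4.94 CPM (log2 -0.72, SE 0.09, adjusted p 4.14e-05). The ubiquitin ligase Birc3 fell by 0.62 on the log2 scale with NRAS (SE 0.11, adjusted p 9.02e-04) and its relative Birc2 by 0.46 with SETBP1 (SE 0.12, adjusted p 0.0207) and 0.87 with SETBP1+NRAS (SE 0.12, adjusted p 5.82e-05). Birc2 also fell with NRAS (log2 -0.53, SE 0.12, adjusted p 0.00321), and Birc3 with SETBP1+NRAS (log2 -0.56, SE 0.11, adjusted p 0.00133). Birc3 was not called with SETBP1 (log2 0.09, adjusted p 0.591). The receptor gene Cd40 was called higher with SETBP1 (log2 1.58, SE 0.42, adjusted p 0.0251), but at log2 1.03 (adjusted p 0.0683) it was not without SETBP1 replicate 3, nor without any 1 of the empty libraries (0.0560 to 0.0935) or with limma-voom (0.0608). The SETBP1 call of Birc2 was lost without empty replicate 1 or 3 (adjusted p 0.0816 and 0.0908). The kinase gene Chuk was higher in SETBP1+NRAS than in SETBP1 libraries by log2 0.68 (SE 0.10, adjusted p 1.71e-04).

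Genes known to be NF-kB targets were taken from a second list of 39, of which 36 were tested. Many have other activators, and Mmp9 and Vcam1 also stand in the neutrophil and stroma lists. The list was written with earlier results of these data known, so its shares and medians are description and not a test. SETBP1 against empty called 21 higher and 2 lower, or 58.3% and 5.56% of the list, where 8.31% and 6.55% of all genes were. Without SETBP1 replicate 3 it was 19 and 2, where 7.61% and 7.73% of all genes were called. NRAS against empty called 18 higher and 5 lower (63.9% of the list in all, against 32.5% of all genes). SETBP1+NRAS against empty called 23 and 5 (63.9% and 13.9%, against 20.8% and 19.8%), and SETBP1+NRAS against SETBP1 14 and 10 (38.9% and 27.8%, against 20.9% and 21.5%). Median changes in these 4 comparisons were log2 0.82, 0.57, 0.96 and 0.21, against -0.01 or 0.00 over all genes. SETBP1+NRAS against NRAS called 2 higher and 1 lower, 8.33% of the list against 1.91% of all genes, with a median of log2 0.21; without SETBP1 replicate 3 this became 13 and 2, where 7.52% of all genes were called. For the interaction 0 passed with edgeR, where 0.0455% of all genes did. Without that library 7 were called lower, where 0.522% of all genes were.

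Chemokine genes of the list covered a wide range. Ccl4, a macrophage chemokine, was at 12.4 ± 1.98 CPM (SD, n = 3) in empty, 52.7 ± 30.3 in SETBP1, 725 ± 24.2 in NRAS and 1145 ± 166 CPM in SETBP1+NRAS libraries, and it rose by log2 5.88 with NRAS (SE 0.32, adjusted p 1.78e-08). Ccl2, which recruits monocytes, rose by log2 4.21 with NRAS (SE 0.30, adjusted p 2.11e-07), and Ccl3 was 9.18-fold higher in SETBP1+NRAS than in SETBP1 libraries. The neutrophil chemokine genes Cxcl2 and Cxcl3 rose by log2 4.04 (SE 0.61, adjusted p 0.00236) and 3.39 (SE 0.65, adjusted p 0.00645) with SETBP1, with wide spreads of 23.0 ± 18.3 and 81.0 ± 84.8 CPM in that group. Without SETBP1 replicate 3 these rises were log2 3.17 (adjusted p 1.59e-04) and 2.06 (adjusted p 3.24e-04), and with only the empty and SETBP1 libraries fitted Cxcl3 was not past the threshold (0.0780). With NRAS against empty, Cxcl2 and Cxcl3 rose by much the same, log2 4.03 (adjusted p 2.19e-04) and 3.39 (adjusted p 0.00123). With SETBP1+NRAS against empty they rose by log2 5.245 (adjusted p 1.15e-05) and 5.02 (adjusted p 3.82e-05). Ptgs2, the inducible cyclooxygenase, was at 0.695 ± 0.383 CPM in empty and 1.11 ± 0.458 in SETBP1 libraries, and at 27.1 ± 5.85 and 28.2 ± 7.57 CPM in NRAS and SETBP1+NRAS libraries. Saa3, an acute-phase protein gene, differed between the mutants: it was at 22.1 ± 2.35 CPM in empty, 274.9 ± 169.4 in SETBP1, 6.18 ± 0.742 in NRAS and 21.4 ± 6.73 CPM in SETBP1+NRAS libraries. Its rise with SETBP1 was log2 3.64 (SE 0.35, adjusted p 2.26e-04), or 3.00 (adjusted p 5.88e-10) without SETBP1 replicate 3. Il1a, the alarmin cytokine, was higher in SETBP1+NRAS than in NRAS libraries (log2 1.59, SE 0.34, adjusted p 0.0280), and the adhesion gene Vcam1 was lower (log2 -1.53, SE 0.31, adjusted p 0.0229). The Il1a call was lost without any 1 of the NRAS libraries or SETBP1+NRAS replicate 1 or 3 (adjusted p 0.0844 to 0.137), and that of Vcam1 without NRAS replicate 1 or 3 or any 1 of the SETBP1+NRAS libraries (0.0542 to 0.117). With limma-voom neither was called (0.0928 and 0.114).

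**Figure D5:**
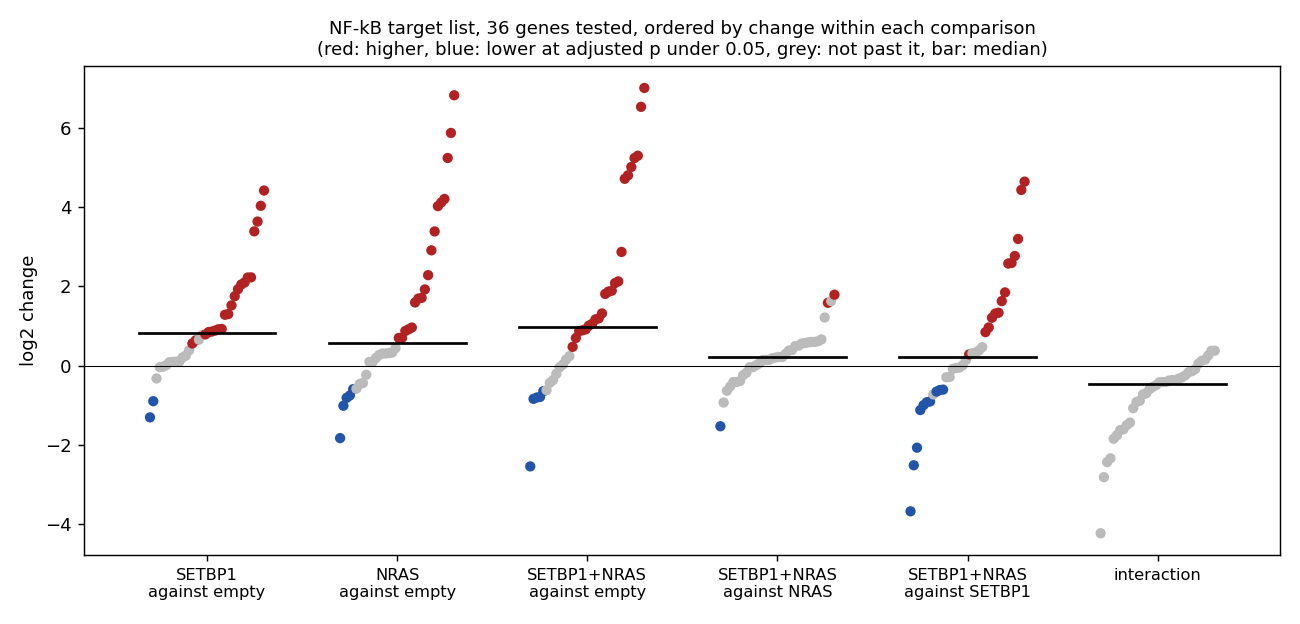
Log2 change (vertical axis) of the 36 tested genes of the NF-kB target list in 6 comparisons, with 1 point per gene in order of its change; red and blue are higher and lower at an adjusted p under 0.05, and the bar is the median. SETBP1 against empty has 21 red and 2 blue points, and SETBP1+NRAS against NRAS has 2 red and 1 blue.

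Across the 12 libraries, which fall into groups, the members formed opposing sets. In log2 CPM, Pearson's r was 0.957 for Nfkbid and Tnf, 0.936 for Nfkb2 and Nfkbia, and 0.836 for Nfkbie and Tnfaip2, while Tnfaip2 was at -0.852 with Nfkbid and -0.844 with Tnf (n = 12 libraries). With the mean profile of all 10, r was at least 0.855 for Nfkbia, Nfkb2 and Nfkbiz but 0.068 for Nfkb1, 0.070 for Nfkbie and -0.20 for Tnfaip2, so a mean over the 10 describes only some of them. The genes most like that mean profile, outside the members, were Acot7 (r 0.973), Exosc4 (0.963), Vps29 (0.957), Grpel1 (0.955) and Tnip1 (0.9502). Tnip1 encodes a partner protein of the Tnfaip3 product. For single members the nearest gene was Wdr55 for Tnf (r 0.985), Srsf9 for Nfkbia (0.985), Pik3r6 for Tnfaip2 (0.984), Slc7a6os for Nfkb2 (0.978), F2rl3 for Nfkbid (0.967), Coasy for Nfkbie (0.964) and Ier3 for Nfkbiz (0.9497). Those for Nfkb1, Tnfaip3 and Relb, at 0.932, 0.917 and 0.897, were Ms4a8a, Appl2 and Rfc4. Ms4a8a had at most 23 counts in a library and 0 in every NRAS library, so its r rests on values near the floor. All points share libraries and the same scaling, and these values describe likeness only.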

How the data were processed

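Reads were counted per gene by the authors, who deposited 1 table of whole-number counts for 19910 gene symbols in 12 libraries; per the submitters' processing notes, STAR, DESeq2 and the build mm10 were used. The counting tool, annotation, strand rule and filter are not given in the sources used here, so overlapping genes or close copies may share reads. Per the labels, RNA came from a micro-scale kit and a SMART-Seq library for very low input. All 12 libraries were fitted as 4 group means in edgeR 4.0.16 (R 4.3.3): TMM scaling, filterByExpr (minimum count 10, total 15), quasi-likelihood F test, Benjamini-Hochberg adjustment over 10993 genes (99.9% of counts), threshold 0.05. Standard errors are the log2 change over the square root of F. RPKM used the union of GENCODE M21 exons. The test was checked on simulated data, in which 200 of 10993 genes were changed by 2-fold or 4-fold. That is fewer genes than were called here for SETBP1 against empty. No simulated library stood apart as SETBP1 replicate 3 did, so the shares hold for that setting only. Of the calls made there for SETBP1 against empty, 5.11% were false with edgeR, 11.7% with DESeq2 and 5.08% with limma-voom. Of 2-fold changes, edgeR recovered 73% for SETBP1 against empty and 51% for the interaction, where smaller changes are easily missed.

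Named genes were the 10 members, Rela, Rel and Nfkbib; up to 4 called genes of the pathway and target lists per comparison, by size, with groups that do not overlap; and the genes of highest r. Members and lists were chosen with earlier results of these data known. Alternatives were DESeq2 1.42.0, limma-voom (limma 3.58.1), other scalings and filters, only the groups compared, the replicate number as a block, stricter thresholds and leaving out each library. Symbols matched GENCODE M21 for 19907 genes. A search of protein sequences was not run. Some genes that this rule names are not reported here.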

Additional observations from a re-analysis of the deposited data

How the results depend on the processing

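Of the changes called in members, Tnf in the comparisons of NRAS or SETBP1+NRAS with empty and of SETBP1+NRAS with SETBP1, Nfkbiz in SETBP1+NRAS against empty and Nfkbie in SETBP1+NRAS against SETBP1 kept their direction and their call in all 23 alternatives, and none of the called changes turned direction. The alternatives include a fold of at least 2, which a change under 2-fold cannot pass. All calls of Nfkbid, Tnfaip2 and Tnfaip3 were lost only there and kept in 22 of 23. The same held for Nfkbia in NRAS or SETBP1+NRAS against empty and Nfkbie in SETBP1+NRAS against empty. The number of members called for SETBP1 against empty, 4, fell to 1 at an adjusted p under 0.01 (3.45% of all genes called), to 1 at a fold change of at least 2 (2.17%) and to 0 with only the groups compared (1.03%), where the share of all genes fell from 14.9%. A fold of at least 2 also left 1 for NRAS against empty (9.9% of all genes), 2 for SETBP1+NRAS against empty (13.3%) and 2 for SETBP1+NRAS against SETBP1 (12.9%). With only the groups compared, 2 members were called for SETBP1+NRAS against NRAS (8.37% of all genes). Leaving out 1 library gave 1 to 5 for SETBP1 against empty (3.5% to 28.7% of all genes), 4 to 8 for NRAS (24.1% to 47.0%), 7 to 8 for SETBP1+NRAS against empty (32.8% to 53.7%), 0 to 1 for SETBP1+NRAS against NRAS (0.834% to 7.52%), 5 to 7 against SETBP1 (33.0% to 46.5%) and 0 to 1 for the interaction (0.00898% to 0.99%). The cause was not tested.

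The replicate number as a block gave 3 members for SETBP1 against empty, losing Nfkbia (adjusted p 0.0560; 10.7% of genes called), and 5 for SETBP1+NRAS against SETBP1, losing Relb (0.0519; 40.1% of genes), and changed no other member's call. Libraries with the same number did not deviate together, with r from -0.13 to 0.12 over 18 pairs and 1 above 0.1, and 2 of 12 libraries were nearest to one of their own number.

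Where a direction turned, the value that turned was not past the threshold. Under library size scaling, log2 values for SETBP1+NRAS against empty were -0.0741 (Relb), -0.0207 (Rela) and -0.00287 (Rel), and against SETBP1 -0.000116 (Nfkbia) and -0.0332 (Rela). Upper-quartile scaling gave -0.0140 for Relb against empty and -0.0118 for Rela against SETBP1. Leaving out 1 library gave, for SETBP1 against empty, -0.197 to 0.0302 (Nfkb1) and -0.0721 to 0.135 (Rela). For SETBP1+NRAS it gave -0.145 to 0.187 (Relb) and -0.00222 to 0.235 (Rel) against empty, and -0.102 to 0.0582 (Nfkb2) and -0.115 to 0.01305 (Nfkbia) against NRAS. Against SETBP1 it gave -0.208 to 0.02635 (Nfkb1), -0.184 to 0.0309 (Nfkb2), -0.0786 to 0.2815 (Nfkbia), -0.0389 to 0.175 (Rela) and -0.316 to 0.00331 (Nfkbib). For the interaction it gave -0.0837 to 0.0482 (Tnfaip2) and -0.161 to 0.0457 (Rela). Depth limits Nfkbiz and Rel most among these genes, with counts from 25 to 118 and from 28 to 67.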
